A study of Mus musculus with 24 samples.

Results

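Open chromatin was compared between the calf and the thigh of adult male FVB/NJ mice, an inbred strain. The calf side held 6 ATAC-seq libraries, 3 of soleus and 3 of gastrocnemius. The thigh side held 6 libraries, 3 of vastus intermedius and 3 of vastus lateralis. These 12 libraries were chosen by muscle and stage from the 24 of the series. The other 12 are the same muscles at E18.5, shortly before birth, and are used here only beside the adult values. Each side has 1 muscle that the labels call slow-biased (soleus, vastus intermedius) and 1 called fast-biased (gastrocnemius, vastus lateralis), so position and labelled fibre bias are crossed. All 4 adult muscles of a replicate number came from the same mouse, and 3 mice were used. The design text gives the adults as postnatal day 56, while the protocols give 3 to 4 months, and the age was not settled here. No genotype, drug or transgene was involved. An E18.5 replicate pooled both legs of up to 5 male embryos of 1 litter. In ATAC-seq, the Tn5 transposase inserts adapters into accessible DNA, and here nuclei of undigested muscle were used, so all cell types of a muscle contribute. A change in the share of cells of a type and a change within those cells cannot be told apart.

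Limb cells keep a record of where along the limb they arose. Hox genes lie in clusters in the order in which they act along the body and the limb, and the 5′ members of the HoxA and HoxD clusters (Hoxa11, Hoxa13, Hoxd11 to Hoxd13) pattern the lower leg and foot, while Meis genes mark the upper limb. Pitx1 and Tbx4 set hindlimb identity, Tbx5 sets forelimb identity, and Hand2 acts upstream of the posterior limb signal Shh. In adult tissue such genes are best known from connective tissue cells and satellite cells. Vastus muscles lie on the femur, and soleus and gastrocnemius act on the heel, so a comparison of the sides asks how much of this positional record is seen in adult muscle chromatin.

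Each deposited list gives peak positions only. The adult peaks merged into 790873 regions. Only those called by at least 2 libraries were used, 314634 in number (717 bp wide at the median), and 22444 were shared by all 12. Calf lists held 174123 ± 24664 peaks (SD, n = 6) and thigh lists 159063 ± 38240. The difference of 15060 peaks was within the spread between libraries (exact permutation test, two-sided p = 0.433). Vastus intermedius had the shortest lists, with 130608 ± 15031 peaks (n = 3), and vastus lateralis the longest, with 187519 ± 31634, so list length is uneven within the thigh side. No header or label states the order of the lists, but it followed peak width and sharing: in the leading 10% of a list, peaks had a median width of 769 to 1113 bp over the libraries and lay on average in 82.9 to 98.7% of the other adult lists. In the last 10% the median width was 257 to 324 bp and that share 9.44 to 18.6%. For this reason the first 60000 and the first 30000 peaks of each list were also compared, an alternative chosen after seeing the data that rests on this undocumented order. The labelled tissue was checked on 9 muscle fibre markers (such as Acta1, Ckm and Ttn). The gene starts of 6 of them were called in all 12 libraries, and 2 had no start scored as called. Loci of the 9 markers had 50.8% ± 11.7 of regions called in the calf and 57.5% ± 7.57 in the thigh (SD, n = 6), beside 38.3% ± 3.85 and 36.5% ± 5.95 of all kept regions. Among loci of other cell types, endothelium was called at 40.6% ± 3.58 of its regions in the calf and 40.9% ± 2.75 in the thigh (SD, n = 6), and tendon at 38.2% ± 6.68 and 37.2% ± 4.83. Adipocyte loci were at 41.3% ± 6.19 in the calf and 46.8% ± 6.41 in the thigh, and fibro-adipogenic and fibroblast loci at 35.1% ± 3.89 and 39.5% ± 7.43, with vastus lateralis highest at 51.9% and 45.2%. Vastus lateralis was also the highest muscle over all kept regions, at 41.3%. No start of the 6 immune markers was scored as called in any library. In this count and in that of the fibre markers, a gene without an annotated start window also scored as uncalled. Such genes were not told apart from genes whose start had no call. The part of cell type shares in the differences below was not tested.

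Few regions told the sides apart. Of 46954 regions whose number of calls could reach an unadjusted p of 0.05, 13 were called in all 6 calf and no thigh library (0.0277%), and 10 in all 6 thigh and no calf library (0.0213%). At that p, 293 regions were called more often in the calf (0.624%) and 284 in the thigh (0.605%). None passed Fisher's exact test after Benjamini-Hochberg adjustment (0 of 46954, smallest unadjusted p = 0.00216, smallest adjusted p = 1). With 6 against 6 libraries 0.00216 is the smallest p the test allows.

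The same 12 libraries allow the other contrasts of the layout, given here as a scale. Slow-biased against fast-biased muscles separated 18 and 222 regions completely, with 224 and 1433 at an unadjusted p of 0.05. The crossed pairing, soleus with vastus lateralis against gastrocnemius with vastus intermedius, separated 16 and 10, with 297 and 160 at that p. In the full lists the calf count was thus close to that of the crossed pairing, and the thigh count was above it. In the first 60000 peaks the picture differed: 6 calf (0.0367%) and 12 thigh regions (0.0735%) were separated, against 0 and 2 for the crossed pairing. At the unadjusted p, the shares were then 0.52% and 1.16% of 16333 tested regions for calf and thigh, and 0.184% and 0.502% for the crossed pairing. In the first 30000 peaks, 2 calf (0.0248%) and 8 thigh regions (0.0991%) were separated, and 40 regions were higher in the calf (0.495%) and 100 in the thigh (1.24%), against 11 and 43 in the crossed pairing. No calf-thigh region passed the adjusted test in either of these (0 in each). The 3 contrasts share all libraries, and the difference between their counts was not tested.

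**Figure D1:**
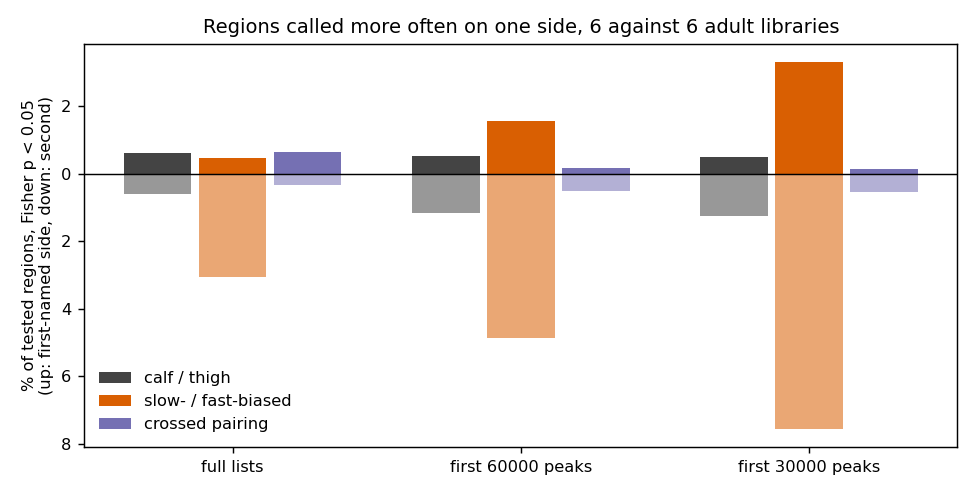
Share of tested regions (y axis, %) called more often on one side at an unadjusted Fisher p under 0.05, for 6 against 6 adult libraries, with the full lists and the first 60000 or 30000 peaks (x axis). Bars above 0 are the first-named side (calf, slow-biased, or soleus with vastus lateralis) and bars below 0 the second; each calf and thigh bar exceeds the crossed bar of the same direction in the first 60000 and 30000 peaks, and in the full lists the calf bar (0.624%) lies close to the crossed one (0.633%) while the thigh bar (0.605%) exceeds it (0.341%).

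The completely separated regions lay inside genes or between them. Gene starts were overlapped only by the thigh regions at Gm10561 and Spn, while they made up 3.15% of all tested regions. Among the calf regions, the widest peaks were at chr10:5057707-5058807 inside Syne1, which links the nucleus to the cytoskeleton, with a mean peak width of 580 bp, and at chr2:157020482-157022133 inside Soga1 (559 bp). The next were inside Msi2, an RNA-binding protein, 13228 bp from Il22, inside Kif6, a kinesin, inside Rtn4rl1, a Nogo receptor homologue, between genes on chromosome 18, and inside Nxpe4. Among the thigh regions, the widest was at chr15:33923867-33924833, 97326 bp from the nearest gene (534 bp). The second, at chr1:55226063-55226845 inside Rftn2, a lipid raft protein, overlapped the start of the lncRNA gene Gm10561 (503 bp). The others named by the rule lay 4615 bp from 4930500F04Rik, inside Ddx24, an RNA helicase, inside Arhgap42, a GTPase-activating protein, at the start of Spn, a leukocyte surface protein, inside Rxfp2, a relaxin-family receptor, and inside Piezo1, a mechanically gated channel. None of the 23 lay in a limb position locus or in a Hox cluster. Limb position loci and windows held 301 of the 46954 tested regions, so their absence among 23 says little about limb genes. Within the first 60000 peaks, none of the 23 was called by more than 4 of the 6 libraries of its side.

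The regions picked at the unadjusted p in the adult, none of which passed after adjustment, showed no such difference at E18.5. The 293 calf-higher regions were called at E18.5 at a mean share of 39.6% ± 13.1 per calf library and 41.9% ± 3.8 per thigh library (SD, n = 6). The 284 thigh-higher regions were called at E18.5 at 53.6% ± 13 in the calf and 49.5% ± 7.76 in the thigh. Over all tested regions these shares were 47% ± 11.8 and 46.2% ± 4.55. In both sets the E18.5 difference was smaller than the spread between libraries and opposite in sign to the adult one. The adult difference of these sets follows from how they were picked, so these values cannot show a change between the stages. Gene starts (250 bases before to 50 after a RefSeq start) made up 1.37% of the calf-higher, 4.23% of the thigh-higher and 3.15% of all tested regions.

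Per gene, a locus was the gene body plus 10 kb on each side, and its value in a library was the percent of its regions that the library called, minus the percent of all kept regions that the library called. Of 22162 loci with at least 5 regions, none passed in limma with Benjamini-Hochberg adjustment in either direction (0 and 0, smallest adjusted p = 0.436). At an unadjusted p of 0.05, 612 loci were higher in the calf (2.76%) and 963 in the thigh (4.35%), and the median difference of all loci was -1.34 percentage points. Without subtracting the library's own share the split turned, to 849 calf-higher and 521 thigh-higher, with a median of 0.412, so all differences are given relative to the library. With a call defined by peaks covering 50% of a region, 3 loci passed, all higher in the thigh. Among them were the nuclear lncRNA Neat1 (-30.1 points, SE 5.45, adjusted p = 0.00481), and Mbnl1 (-17.2 points, SE 3.34, adjusted p = 0.0142, limma).

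The loci with the smallest p in the calf direction did not pass the threshold, and their values are descriptions. Rimbp2, a scaffold of the presynaptic release site on chromosome 5 with 50 regions, had 15, 23 and 15 regions called in soleus, 15, 26 and 12 in gastrocnemius, 9, 6 and 3 in vastus intermedius and 18, 8 and 7 in vastus lateralis. Vastus lateralis 1 overlapped the calf libraries, and the other 5 thigh libraries lay below all 6. The calf minus thigh difference was 16.6 points (SE 4.1, unadjusted p = 1.30e-04, adjusted p = 0.553, limma). Its locus shares regions with those of Piwil1, Gm42875 and Gm34057. Ern2, an endoplasmic reticulum stress sensor, had 3 to 6 of its 10 regions called in the calf (median 4.5) and 0 to 4 in the thigh (median 0), a difference of 29.9 points (SE 7.37). Its locus shares regions with that of the mitotic kinase Plk1. Gfra3, a receptor subunit for the neurotrophic factor artemin, had 2 to 6 of 10 regions called in the calf and 0 or 1 in the thigh. The Gfra3 locus shares regions with that of Cdc25c. Epb41l3, a membrane skeleton protein, had 9 to 18 of 33 against 4 to 10. The others were Gm40972, Klhl4, Spint3 and 1700030N03Rik, with differences of 26.6 to 34.9 points and adjusted p = 0.553 each (limma). Gm40972 shares regions with the loci of 4921517D22Rik, Spata31d1a, Spata31d1b and Spata31d1d, and Spint3 with those of Gm14317, Wfdc2, Wfdc6a and Eppin.

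In the thigh direction, the lncRNA gene A730020M07Rik had the smallest p of all loci. Of its 11 regions, soleus libraries called 5, 0 and 2, gastrocnemius 3, 3 and 4, vastus intermedius 6, 4 and 5, and vastus lateralis 7, 8 and 8. Soleus 1 and gastrocnemius 3 overlapped vastus intermedius, and all vastus lateralis libraries lay above all calf libraries. The difference was -33.6 points (SE 7.34, unadjusted p = 1.97e-05, adjusted p = 0.436, limma). Mbnl1, a splicing regulator that drives the shift from foetal to adult isoforms in muscle, had 53 regions, of which 20, 13 and 18 were called in soleus, 24, 23 and 26 in gastrocnemius, 22, 23 and 25 in vastus intermedius and 35, 35 and 31 in vastus lateralis. Gastrocnemius and vastus intermedius overlapped, soleus was low and vastus lateralis high, with a difference of -16.5 points (SE 3.85). Mrtfa, a coactivator of serum response factor, showed the same order, with 16 to 23 of 60 regions in soleus and 33 to 36 in vastus lateralis. The Mrtfa locus shares regions with those of Sgsm3 and 4930483J18Rik. Rock1, a kinase that acts on the actin cytoskeleton, and Iqsec2, an exchange factor for Arf GTPases, had 1 to 3 and 2 to 4 regions called in the calf against 3 to 5 and 3 to 7 in the thigh. The lncRNA genes Gm14812, Gm31037 and Gm45805 completed the 8, with differences of -38.4, -35.1 and -26 points. Of these, Gm14812 had 0, 0 and 1 of its 5 regions called in vastus intermedius, as in the calf (0 or 1), and 2, 4 and 5 in vastus lateralis (interaction, unadjusted p = 0.00149, limma). Whether the calf-thigh difference depended on the labelled fibre bias was tested by the interaction, and no locus passed (0 and 0 of 22162, limma with Benjamini-Hochberg adjustment, smallest adjusted p = 0.523, with 559 and 904 at an unadjusted p of 0.05).

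**Figure D2:**
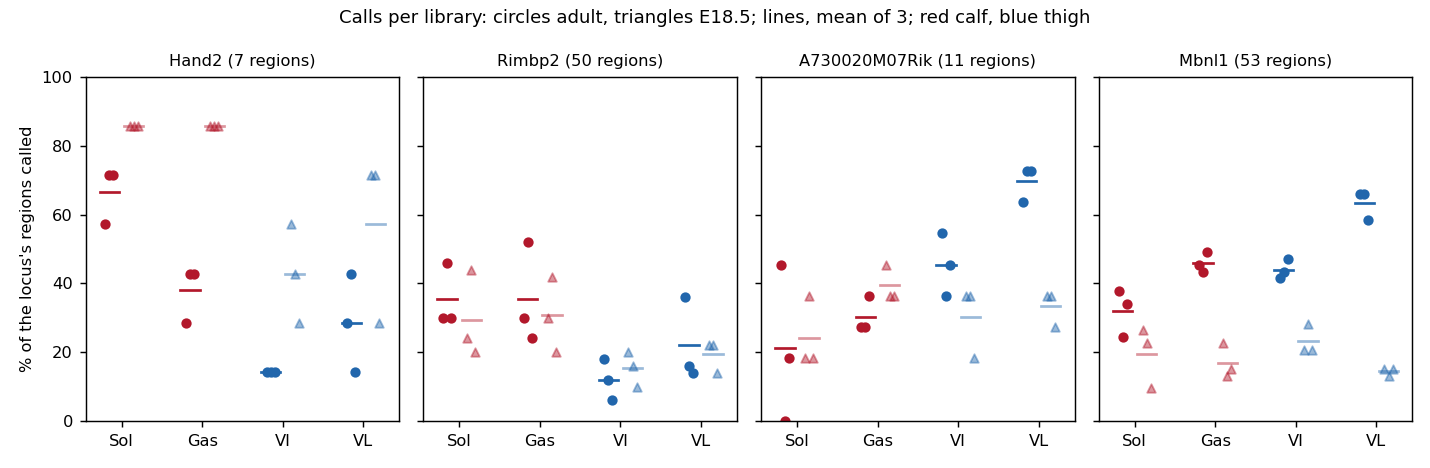
Percent of a locus's regions called (y axis) in each library of soleus (Sol), gastrocnemius (Gas), vastus intermedius (VI) and vastus lateralis (VL), circles for adult and triangles for E18.5, with lines at the mean of 3. For Hand2, each soleus circle lies above each thigh circle and the 6 calf triangles sit together above all thigh triangles, while for Mbnl1 the adult gastrocnemius and vastus intermedius circles overlap.

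Genes of the contractile apparatus leaned with position although each side holds a slow- and a fast-biased muscle, but none passed the test in the 12 adult libraries. Of 14 slow fibre loci fitted, 2 were higher in the calf at an unadjusted p of 0.05 and none in the thigh, and the list's median difference was 3.92 points beside -1.34 for all loci. Of 17 fast fibre loci, 5 were higher in the thigh and none in the calf, with a median of -9.23. Over all loci these shares were 2.76% in the calf and 4.35% in the thigh direction. None of the 31 passed after adjustment in the 12 adult libraries. In the first 30000 peaks, 10 slow and 14 fast fibre loci were fitted. A fit of all 24 libraries, added after seeing the data, called 2 of these, beside 0.318% (calf) and 1.37% (thigh) of 7874 loci. They were Myl2, the slow regulatory light chain (37.3 points, adjusted p = 0.00417), and Tnnt3, fast troponin T (-29.4 points, adjusted p = 0.0254, limma). In the full lists of the 12 adult libraries Tnnt3 leaned to the calf instead (3.8 points, SE 7.55), while Myl2 kept its direction (9.36 points, SE 6.05). There gastrocnemius called 10, 9 and 11 of the 15 Myl2 regions and vastus lateralis 5, 6 and 5. Soleus (7, 8 and 8) and vastus intermedius (7, 11 and 9) overlapped (interaction, unadjusted p = 2.08e-04, adjusted p = 0.523, limma). The medians of both lists kept their sign under every alternative run, from 0.331 to 12.3 for slow and from -16.2 to -7.31 for fast fibre loci. Myh7, the slow myosin heavy chain, had 10, 9 and 13 of 22 regions called in soleus, 10, 7 and 12 in gastrocnemius, 7, 10 and 8 in vastus intermedius and 8, 2 and 1 in vastus lateralis (17.2 points, SE 5.6, unadjusted p = 0.00302, adjusted p = 0.553, limma). Vastus lateralis 2 and 3 were the low libraries, and the sides otherwise overlapped. Myh4, the fastest myosin heavy chain, had 0, 4 and 1 of 14 regions in soleus, 12, 8 and 10 in gastrocnemius, 6, 8 and 2 in vastus intermedius and 12, 13 and 10 in vastus lateralis (-20.8 points, SE 6.69, adjusted p = 0.553, limma). Soleus was the low muscle, and gastrocnemius overlapped vastus lateralis. The others at the unadjusted p, named after their values were seen, were Csrp3, a Z-disc protein (14.9 points), and Myh1, Tnni2, Myl1 and Ryr1 (-18.4, -18.4, -13.7 and -9.23 points), which encode a fast myosin, fast troponin I, a fast light chain and the calcium release channel. In the first 30000 peaks Ryr1 was higher in the calf instead (16.9 points, SE 5.97). Over all regions of the slow list, 49% were called in soleus, 46.1% in gastrocnemius, 45.3% in vastus intermedius and 34.3% in vastus lateralis. Over those of the fast list the shares were 36.6%, 58.9%, 47.4% and 64.1%. Per side the slow share was 47.5% ± 4.09 in the calf and 39.8% ± 7.14 in the thigh, and the fast share 47.8% ± 12.9 and 55.7% ± 9.45 (SD, n = 6), so the sides overlapped. All kept regions were called at 37.2%, 39.4%, 31.8% and 41.3% in the same muscles. Relative to that level, the fast share was lower in the calf muscle of each labelled fibre bias, while the slow share was lower in soleus than in vastus intermedius and higher in gastrocnemius than in vastus lateralis. These differences were not tested, and the part of fibre content in the other calf-thigh differences was not tested.

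Limb position genes did not differ between the sides as a group. Of 125 listed genes, 105 had a fitted locus, and at an unadjusted p of 0.05, 2 were higher in the calf and 7 in the thigh, beside 2.76% and 4.35% of all loci. Their median difference was -1.76 points beside -1.34 for all loci, and none passed after adjustment (0 of 105). By list, the medians were -5.23 points for hindlimb identity (5 loci), -15.7 for forelimb identity (4), -1.76 for the proximal limb (14), -0.714 for the middle limb (4), 0.328 for the distal limb (9), -1.76 for other Hox genes (20), -5.09 for the anterior-posterior and dorsal-ventral axes (11), -2.29 for limb mesenchyme and connective tissue (19), -2.45 for migrating muscle precursors (12) and -0.83 for limb signals (7). The 2 calf-higher loci were Hand2 and Hoxc12, and the 7 thigh-higher ones were Zfhx4, Hoxc4, Pax3, Hoxc6, Tbx15, Prrx1 and Tcf7l2. Hoxc4 and Hoxc6 are neighbours whose loci share regions.

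**Figure D3:**
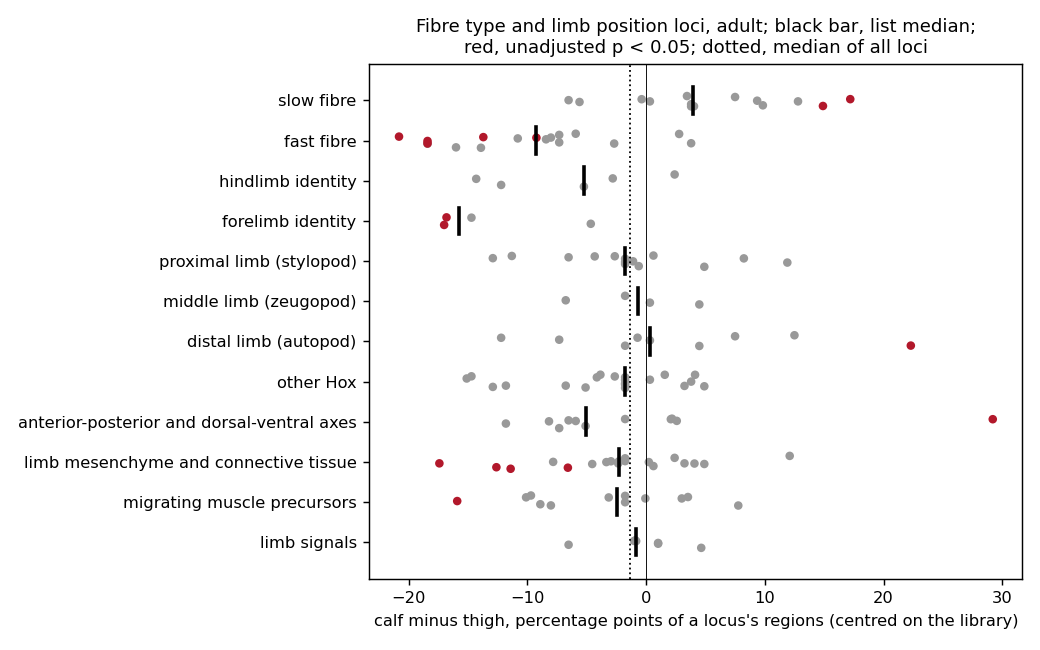
Calf minus thigh difference (x axis, percentage points of a locus's regions, centred on the library) of each fitted gene of the fibre type and limb position lists (rows) in the 12 adult libraries, 1 point a locus, with a black bar at the list median. The slow fibre bar is at 3.92 and the fast fibre bar at -9.23, on either side of the dotted median of all loci, and Hand2 is the point farthest to the right at 29.2.

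Hand2 had the smallest unadjusted p among the limb position loci in the full adult lists (limma). Its locus on chromosome 8 (gene body 57320983 to 57324517) held 7 regions, of which soleus called 4, 5 and 5, gastrocnemius 2, 3 and 3, vastus intermedius 1, 1 and 1, and vastus lateralis 2, 3 and 1. Every soleus library lay above every thigh library, and gastrocnemius overlapped vastus lateralis. The adult difference was 29.2 points (SE 8.26, unadjusted p = 7.17e-04, adjusted p = 0.553, limma), and it lay between 20.2 and 43.5 points under the alternatives that could be fitted. At E18.5, in other animals, all 6 calf libraries called 6 of the 7 regions, vastus intermedius 4, 3 and 2, and vastus lateralis 5, 5 and 2. These values do not overlap between the sides, and how many other loci share this was not counted. The E18.5 difference was 35.1 points (SE 7.65, unadjusted p = 2.74e-05, adjusted p = 0.203 over all loci, limma over 24 libraries). In the mean of both stages, an alternative chosen after seeing the data, Hand2 was one of 3 loci past the threshold (32.1 points, adjusted p = 0.00474, limma), beside Rimbp2 (14.3 points, adjusted p = 0.0252) and the lncRNA gene Gm30245 (-28.6 points, adjusted p = 0.0252). In that fit 2 loci were higher in the calf (0.00902%) and 1 in the thigh (0.00451%). With as many leading peaks per list as the shortest adult list holds (115333), Hand2 kept its direction at both stages (30.8 and 20.2 points) but did not pass (adjusted p = 0.626), and in the first 60000 peaks it had too few regions to be fitted. Rimbp2 (10.3 points, adjusted p = 0.798) and Gm30245 (-14.1 points, adjusted p = 0.819, limma) did not pass there either, and the adult difference of Gm30245 turned from -20.8 to 1.62 points. Within the locus, the region at chr8:57327100-57329810 was called in 11 of the 12 adult and all 12 E18.5 libraries. Of the others, chr8:57312340-57313172, inside the antisense gene Hand2os1, was called in 2 of 6 adult calf and 0 of 6 thigh libraries and in 6 and 1 at E18.5, and chr8:57331578-57332614 in 4 and 1 adult and in 6 and 2 E18.5 libraries. The regions chr8:57312340-57313172, chr8:57321399-57322113 and chr8:57322204-57322717 each had 2 adult calf and 0 adult thigh calls. They were thus kept only through calf libraries, the side found higher. The adult difference and the mean of both stages rest in part on them, and the full-list fit was not repeated without them. No kept region covered the Hand2 start. The region chr8:57323268-57323925 went the other way at E18.5, with calls in 0 calf and 2 thigh libraries. Within the first 30000 peaks the widely shared region was called in 4 adult calf and no adult thigh libraries.

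In the HoxA cluster on chromosome 6 (50 regions) the sides called similar numbers of regions, 27.7 ± 5.16 in the calf and 29.5 ± 4.68 in the thigh (SD, n = 6), and none of the 7 testable regions differed at an unadjusted p of 0.05 in the full lists. Which regions ranked among the first 60000 peaks differed along the cluster, a pattern chosen after its values were seen. At the Hoxa11 start (chr6:52245029-52246910, which also covers the start of the antisense gene Hoxa11os) the full lists had calls in 5 calf and 4 thigh libraries, but within the first 60000 peaks it was called in 2 soleus, 3 gastrocnemius and no thigh library. At the Hoxa6 start (chr6:52208555-52209135) the full lists had 4 and 5 calls, and within the first 60000 peaks no calf library, 2 vastus intermedius and 3 vastus lateralis libraries called it. Hoxa11 is a gene of the lower leg, and Hoxa6 lies in the middle of the cluster. Because these starts differed in opposite directions, the 250 bases before each RefSeq start are shown (GRCm38.p6, minus strand, chr6:52245811-52246060 for Hoxa11 and chr6:52208673-52208922 for Hoxa6), with the homeodomain core TAAT, or ATTA on the other strand, in capitals.
Hoxa11: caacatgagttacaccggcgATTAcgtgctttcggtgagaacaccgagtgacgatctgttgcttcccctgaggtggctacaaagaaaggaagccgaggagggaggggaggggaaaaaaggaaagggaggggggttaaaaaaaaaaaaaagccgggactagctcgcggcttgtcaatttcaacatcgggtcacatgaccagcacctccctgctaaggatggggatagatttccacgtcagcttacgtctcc
Hoxa6: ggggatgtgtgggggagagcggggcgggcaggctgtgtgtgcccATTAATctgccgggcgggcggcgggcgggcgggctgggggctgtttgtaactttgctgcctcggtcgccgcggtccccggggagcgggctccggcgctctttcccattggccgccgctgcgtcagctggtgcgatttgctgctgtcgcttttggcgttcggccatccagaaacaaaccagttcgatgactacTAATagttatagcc
The core occurred once before Hoxa11 and 3 times before Hoxa6, where 2 of the matches overlap, and 54.9% of the 32851 RefSeq promoters hold it in the same window. Hoxa6 had 24 CG pairs and a GC share of 65.2%, Hoxa11 13 pairs and 52%, and the median promoter 6 pairs.

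**Figure D4:**
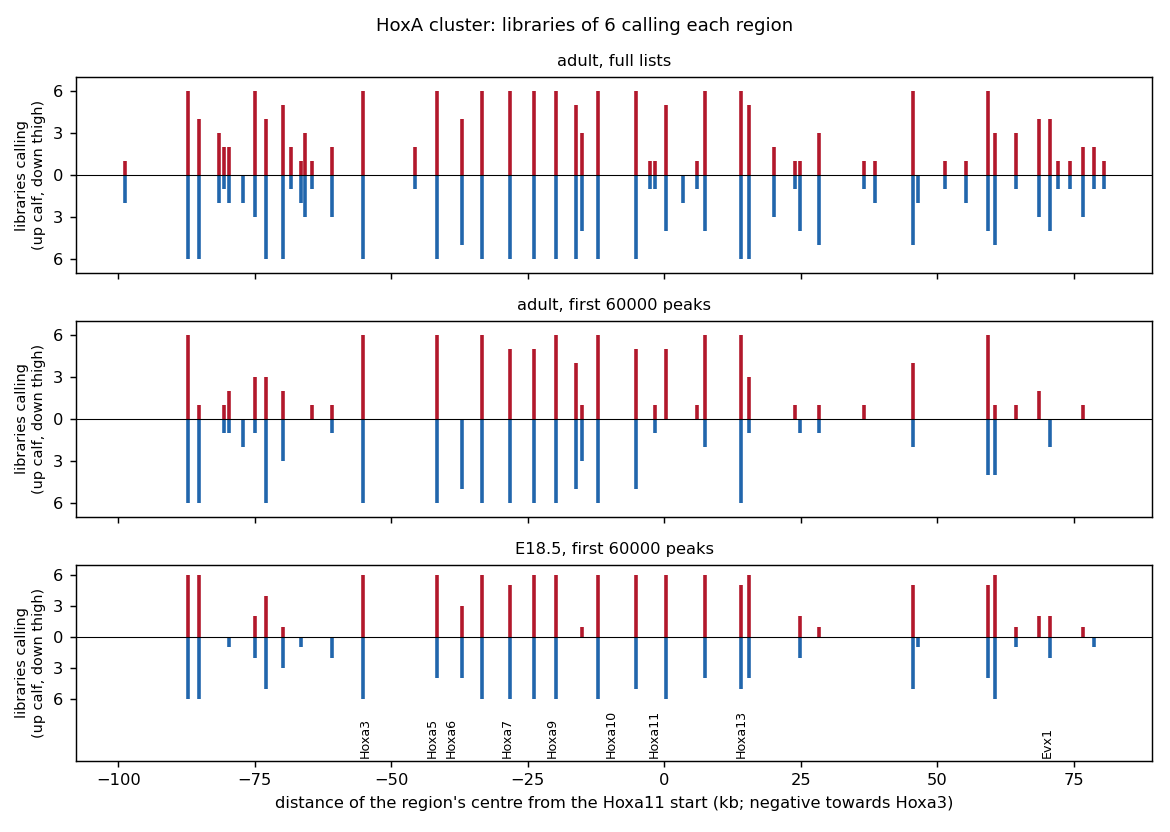
Number of libraries of 6 (y axis, calf up, thigh down) calling each region of the HoxA cluster, by distance of its centre from the Hoxa11 start (x axis, kb), for adult full lists, adult first 60000 peaks and E18.5 first 60000 peaks. In the middle panel the bar at 0.2 kb has 5 calf and no thigh libraries and the bar at -37 kb no calf and 5 thigh libraries, while in the full lists both are called on both sides.

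In the fit over loci of the first 60000 peaks, 5 limb position loci were higher in the calf and 10 in the thigh at an unadjusted p of 0.05, beside 3.18% and 6.27% of 15466 loci, and none passed (smallest adjusted p of a limb locus 0.392, limma). The calf-higher loci were Hoxc12 (47.9 points, SE 10.7), Hoxa11 (33.4, SE 8.36), Hoxa13 (36.8, SE 11.3), Meox2, a homeobox gene of migrating muscle precursors (28.4, SE 7.97), and Hoxd3 (17.3, SE 7.84). The thigh-higher ones included Hoxa3, Hoxa5, Hoxa6, Hoxa7, Hoxc5, Gdf5, Prrx2, Osr1 and Tbx15, with differences from -14.3 to -35.5 points. The distal limb list then had a median of 15.9 points over 6 loci, and the list of other Hox genes -11.8 over 20, beside -2.13 for all loci. In the full lists these medians were 0.328 and -1.76. Loci of neighbouring Hox genes share regions, so these counts and medians use some calls more than once. The region at the Hoxa6 start lies in the loci of Hoxa3, Hoxa5, Hoxa6 and Hoxa7, and the loci of Hoxa11 and Hoxa13 also share regions. Hoxa11 differed by 0.328 points in the full lists (SE 7.9), by 33.4 in the first 60000 and by 37.3 in the first 30000 peaks. The pattern of the distal list rests on few loci: in the first 30000 peaks 1 of its loci could be fitted (-12.7 points), and the list of other Hox genes was at -0.935 over 14. In the first 30000 peaks 3 limb loci were higher in the calf and 8 in the thigh at the unadjusted p, beside 2.97% and 7.79% of 7874 loci. A fit of all 24 libraries, which pools the spread of both stages and was added after seeing the data, called adult calf-thigh differences where the 12-library fit called none. In the first 60000 peaks it called 18 loci higher in the calf (0.116%) and 31 in the thigh (0.2%), with Hoxc12 (adjusted p = 0.0151) and Hoxa11 (adjusted p = 0.0347, limma) among the former. In the first 30000 it called 25 (0.318%) and 108 (1.37%), with Hoxa2, Eya4 and Lhx2 among the latter and Hoxa11 not among the former. These loci hold few regions. Hoxc12 had 3 and Hoxa11 5 in the first 60000 peaks, and Hoxa2 had 3 and Eya4 and Lhx2 4 each in the first 30000. Within the first 60000 peaks 5 calf and no thigh libraries called the Hoxa11 start, so it was kept there only through the side found higher. The fit was not repeated without it. At E18.5 the Hoxa11 start was called by all 12 libraries within the first 60000 peaks, and within the first 30000 by 6 of 6 calf libraries and 1 of 6 thigh libraries. In the mean of both stages within the first 30000 peaks, the locus of Hoxa11os passed (50.4 points, adjusted p = 0.00534, limma), while that of Hoxa11, which shares regions with it, did not (37.9 points, adjusted p = 0.116). The Hoxa11 start lies in both loci and was called there by 3 adult calf and no adult thigh libraries. Any region kept there thus came from calf libraries alone. Hoxa13, which patterns the foot, was at -12.2 points in the full lists (SE 7.99), so its direction depended on how many peaks were used.

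The other key genes gave little difference in the full lists. Pitx1 had 3 to 8 of 16 regions called in the calf and 4 to 8 in the thigh (medians 5 and 5.5), and Tbx4 had 6 to 9 of 24 in the calf and 3 to 11 in the thigh (medians 7.5 and 9). Tbx5 had 4 to 12 and 3 to 13 of 23 regions, and vastus lateralis, with 10, 12 and 13, was its highest muscle. Meis1, which marks the upper limb, had 14, 13 and 15 of 25 regions in soleus, 9, 9 and 7 in gastrocnemius, 9, 13 and 14 in vastus intermedius and 12, 10 and 8 in vastus lateralis. Its values differed by labelled fibre bias (21.3 points, adjusted p = 0.0403, limma), and the position difference was -1.09 points (SE 4.97). Meis2, Shox2, Lmx1b and Irx3 differed by -4.32, -1.76, 2.19 and 4.91 points, with SE of 5.24, 10.8, 4.34 and 9.71, so each difference was smaller than its SE.

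In the HoxC cluster, the differences were negative at the 3′ end and positive at the 5′ end, and none passed the adjusted test. Neighbouring loci share regions here, so their values are not separate observations. Over the whole cluster (35 regions) the calf called 20.7 ± 3.14 regions and the thigh 20.7 ± 2.58 (SD, n = 6). Hoxc4 differed by -17 points (SE 6.94), Hoxc6 by -16.8 (SE 7.61), Hoxc8 by -11.8 (SE 9.81), Hoxc9 by -14.3 (SE 8.11), Hoxc10 by -12.2 (SE 8.12), Hoxc11 by 2.41 (SE 8.24) and Hoxc12 by 22.3 (SE 7.81), with adjusted p from 0.566 to 0.968 (limma). Hoxc12 had 3, 3 and 6 of 9 regions called in soleus, 5, 4 and 3 in gastrocnemius, 0, 1 and 2 in vastus intermedius and 3, 4 and 1 in vastus lateralis. Vastus lateralis overlapped the calf, and vastus intermedius lay below it. At E18.5 the Hoxc12 difference was -2.49 points, and the adult-E18.5 difference had an unadjusted p of 0.0271 (limma) and did not pass. In the HoxD cluster, Hoxd8 to Hoxd13 differed by -7.31 to 8.24 points with SE of 7.81 to 9.86, which is within the error.

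Outside the clusters, 1 region 59418 bp from Lnpk, in the gene-poor stretch on the centromeric side of HoxD known for limb enhancers, ranked differently (chr2:74454209-74455417). The full lists had it in no soleus, 2 gastrocnemius and all 6 thigh libraries, and within the first 60000 peaks it was called in no calf and in all 6 thigh libraries. No E18.5 library called it. In the window from Rsrc1 to Shox2, the region inside Rsrc1 at chr3:67262276-67264053 was called within the first 60000 peaks by 5 calf and no thigh libraries, and in the full lists by 6 and 4. Over all 2097 regions in limb position loci and windows, 301 were testable in the full lists, and 1 was calf-higher and 2 were thigh-higher (0.332% and 0.664%), near the shares of 0.624% and 0.605% over all regions. The calf-higher one lay inside Gm46873, 4564 bp from Pax7, the satellite cell regulator, and the thigh-higher ones inside Zfhx3 and Tcf3, both transcription factors. Within the first 60000 peaks, 3 of 132 were calf-higher (2.27%) and 4 thigh-higher (3.03%), beside 0.539% and 1.14% of all tested regions. These counts are small and the regions of a cluster are neighbours.

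Tbx15 and Prrx1, transcription factors of limb mesenchyme, leaned to the thigh without passing the adjusted test. Tbx15 had 14, 11 and 11 of 26 regions in soleus, 15, 13 and 11 in gastrocnemius, 13, 14 and 12 in vastus intermedius and 12, 20 and 19 in vastus lateralis (-11.4 points, SE 5.2, adjusted p = 0.67, limma). Vastus lateralis 2 and 3 were high and all other libraries overlapped. The adipocyte and fibro-adipogenic marker loci given above were also highest in vastus lateralis, but so was the share of all kept regions (41.3%). The part of these cell types in the differences was not tested. Prrx1 had 5 to 10 of 20 regions in the calf and 6 to 15 in the thigh (-12.6 points, SE 5.88). Pax3, which marks migrating muscle precursors, had 1 to 5 of 13 regions in the calf and 3 to 7 in the thigh (-15.9 points, SE 6.49), and Zfhx4 4 to 7 of 16 and 6 to 10 (-17.4 points, SE 5.98). All of these missed the adjusted threshold.

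The adult and E18.5 differences were compared over all 24 libraries in the regions of the adult lists, and no locus differed between the stages (0 and 0 of 22162, limma with Benjamini-Hochberg adjustment, with 506 and 938 at an unadjusted p of 0.05, or 2.28% and 4.23%). Among limb position loci, 9 of 105 had an unadjusted p under 0.05 for that difference, beside 1444 of 22162 loci. At E18.5 itself 2 limb position loci were higher in the calf and 1 in the thigh, beside 2.27% and 1.41% of all loci.

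Neighbourhood in the leg made whole lists no more alike than a shared fibre bias. Within an animal, the Jaccard index (regions called by both libraries over regions called by either) was 0.357 ± 0.0118 for pairs of the same position (SD over 3 animals, each the mean of 2 pairs), 0.364 ± 0.00452 for pairs of the same bias and 0.351 ± 0.00269 for pairs that share neither. In animal 1 the same-position mean was the lowest of the 3, at 0.345, and in animal 2 the highest, at 0.368. Gastrocnemius and vastus lateralis were the most alike pair (0.389 ± 0.0181), and soleus and vastus lateralis the least (0.333 ± 0.00842). Within the first 60000 peaks the 3 values were 0.488 ± 0.00579, 0.497 ± 0.0307 and 0.469 ± 0.0224. With 3 animals no test was made, and the differences are of the size of the spread between animals.

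**Figure D5:**
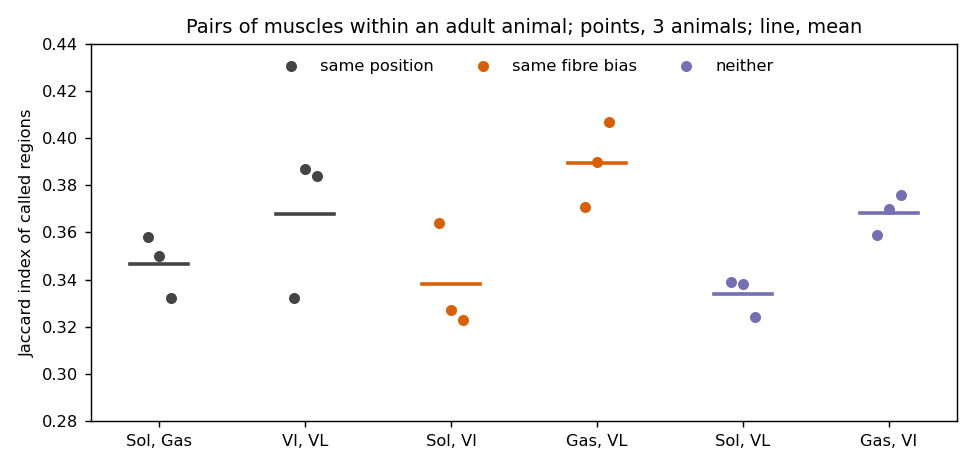
Jaccard index of called regions (y axis, shown from 0.28) for each pair of muscles (x axis) within each of 3 adult mice, points, with the mean as a line. Pairs of the same position (black) run from 0.332 to 0.387, within the range of pairs of the same fibre bias (orange), and vastus intermedius with vastus lateralis in animals 2 and 3 (0.387 and 0.384) lies above every pair that shares neither (purple, up to 0.376).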

How the data were processed

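The 12 adult libraries were assigned by their labelled muscle and mouse number. The authors deposited 1 peak list per library, giving chromosome, start and end on mm10 and no score or count. The submitters' notes name MACS2 2.1.1 for peaks and Bowtie2 2.4.4 among the aligning tools. Calling thresholds, any transposase shift and sequencing depth were unknown, so no depth-based interval was computed, and a region without a call may still be accessible.

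Peaks of chromosomes 1 to 19, X and Y were merged, and a call needed 1 bp of overlap. Genes were 34614 entries of RefSeq GRCm38.p6, whose promoter windows and sequences were used. Fisher's exact test was two-sided and adjusted over regions able to reach the threshold. Loci were fitted with limma 3.58.1 (R 4.3.3) on 4 muscle means with a trend on region number, and with at least 3 regions per locus in the leading-peak alternatives. Other steps used Python 3.11.15. Scripts were tested on simulated data. In the limma fits on muscle means of the adult libraries alone, p-values measure the spread between 3 mice per muscle. The fits over both stages also pool the spread between the embryo litters. Fisher's exact test and the list length permutation treat the libraries of a side as separate, although they include muscles of the same mouse. Only the alternatives with animal as a replicate block take the shared mouse into account. Same-numbered libraries come from the same mouse per the labels, and their deviations from the muscle means correlated at a median of 0.0237 over 18 pairs, beside -0.013 over 36 pairs of different mice.

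The members, gene lists and tests were chosen with earlier results of these data known. Named by rule were completely separated regions (up to 8 per direction, by mean peak width), the 8 loci per direction with the smallest p, key limb genes and the 8 limb genes with the smallest p. Other genes were chosen after their values were seen. Some results at single loci are not reported here.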

Additional observations from a re-analysis of the deposited data

Results flagged for a closer look

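Among 94 sets of 6 libraries checked (the calf and the thigh side of the list lengths and of each named locus), 7 held a library that stood apart from the other 5 by Dixon's 95% criterion, and chance alone gives about 1 in 20. In 3 of them the step was 1 region. Klhl4 had 3 regions called in adult soleus 2 and 2 in the other calf libraries, Gm14812 had 1 in adult soleus 2 and 0 in the others, and Hoxc8 had 5 in vastus lateralis 3 and 4 in the other thigh libraries. Larger gaps were seen for Hoxc9, with 8 regions in gastrocnemius 1 and 5 in the other calf libraries, for Hoxd12 and Hoxd13, with 1 region each in soleus 3 and 3 or 4 in the other calf libraries, and for Shox2, with 1 region in soleus 2 and 4 or 5 in the others.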

How the results depend on the processing

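No region passed the adjusted calf-thigh test under any alternative, but this says nothing about stability: the smallest p possible was 0.00216 with 6 against 6 libraries, 0.00926 with the block and 0.0286 without a replicate, over 46954, 20594 and 21435 to 25189 regions. Adjusted counts of loci were 0 in the alternatives fitted on the adult libraries except for 3 thigh-higher loci with 50% cover. With 24 libraries the mean of both stages called 2 calf and 1 thigh loci in the full lists, 0 and 0 in the first 115333 peaks, 1 and 0 in the first 60000 and 1 and 1 in the first 30000, and the adult difference called 18 and 31 in the first 60000 and 25 and 108 in the first 30000. The 16 named loci kept their direction in all 374 alternative values of the fits on adult libraries. They were picked for their small p in these same libraries, so this says little about stability. Completely separated calf regions, 13 in the full lists, numbered 7 with equal numbers of the widest peaks, 6 with random peaks, 4 with 50% cover, and 6, 6 and 2 in the first 115333, 60000 and 30000 peaks. Separated thigh regions, 10 in the full lists, numbered 22, 30 and 16 with the widest, random and first 115333 peaks. Calf-higher regions at the unadjusted p, 293 in the full lists, numbered 149 (widest), 119 (random), 66 (50% cover), 147, 85 and 40 (first 115333, 60000, 30000), and thigh-higher ones, 284, numbered 176 (50% cover) and 100 (first 30000). Calf-higher loci, 612, numbered 1018 with 50 kb flanks, 281 with at least 10 regions and 234 in the first 30000 peaks, and thigh-higher ones, 963, numbered 521 without centring, 540 with at least 10 regions and 613 in the first 30000. The interaction gave 1 locus with 50 kb flanks and 1 with 50% cover, and the stage difference 1 in the first 115333 and 3 in the first 30000 peaks. Calf-higher limb loci, 2, numbered 1 (50 kb flanks), 0 (at least 10 regions), 6 (50% cover) and 5 (first 60000), and thigh-higher ones, 7, numbered 3 (not centred), 4 (widest), 4 (random) and 12 (50% cover). The difference in the Jaccard index, same position minus neither, moved from 0.00609 to 0.0195 in the first 60000 peaks. Shorter lists and stricter locus filters leave fewer features to test, and otherwise the cause was not tested.

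Leaving out libraries moved the separated counts to 20 to 470 (calf) and 18 to 563 (thigh), since fewer libraries must then agree. Both upper values came without replicate 1. The unadjusted counts ranged from 299 to 961 and from 216 to 886 for regions, from 425 to 708 and from 452 to 1204 for loci, and from 1 to 3 and from 1 to 9 for limb loci. With animal as a replicate block, 0 loci passed in either direction, 636 and 1001 loci were at the unadjusted p, and the list length difference of 15060 had an exact permutation p of 0.454 within animals. The block changed no call.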
